A study of Mus musculus with 12 samples.

Results

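The 9 genes described here belong to transforming growth factor beta (TGF-beta) signalling and were measured in mouse brain after photodynamic therapy (PDT): the ligands Tgfb1, Tgfb2, Tgfb3 and Inhbb, the receptors Tgfbr1, Tgfbr2 and Acvr1, the activin antagonist Fst and the feedback inhibitor Smad7. They were taken by gene symbol, 9 of the 54532 genes in the deposited table, and all 9 passed the filter on low values that left 17664 genes for testing. RNA from brain tissue was sequenced in 12 libraries. Of these, 3 were controls titled PBS, 3 were taken 1.5 h after treatment, 3 at 12 h and 3 at 48 h. Treated mice had been given 5-aminolevulinic acid (5-ALA, 20 mg/kg) and, 30 min later, 635 nm laser light at a labelled 20 J per square centimetre. 5-ALA is a heme precursor that cells turn into a light-activated pigment. Saline perfusion before the brain was taken is given for all samples. The labels give BALB/c as tissue source but C57BL/6 as strain. They give no age or brain region and do not say whether controls received light or that each library was a separate animal.

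TGF-beta ligands are secreted in a latent form and, once released, bring type II and type I receptor kinases together, which then phosphorylate SMAD transcription factors. Activins, dimers built from the Inhba and Inhbb chains, use a parallel set of receptors and are trapped by follistatin, while bone morphogenetic proteins (BMPs) signal through a further branch to which Acvr1 belongs. SMAD7 is induced by the pathway and blocks the type I receptors. In the brain, TGF-beta is known for keeping microglia in their resting state and for its part in the reaction of glia and vessels to injury.

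Values are deposited FPKM, fragments per kilobase of gene scaled by a factor per library whose derivation is not given. That factor did not follow the total of recovered reads. In 1.5 h replicate 1, with 15709617 reads, 76 reads of Tgfb1 gave 1.24 FPKM. In control replicate 1, with 16642402 reads, 81 reads gave 0.928 FPKM. Recovered reads were 15348579 to 17444654 per library, with 54 to 1557 reads behind each value of the 9 genes. Genes were tested with limma on log2(FPKM + 1), and a gene is said to rise or fall at a Benjamini-Hochberg false discovery rate below 0.05. Log2 changes carry the standard error (SE) of the fit. Replicates 1 and 3 of the 1.5 h group stood apart: relative to controls, each doubling of gene length lowered the log2 level by a slope of -0.249 in replicate 1 and -0.172 in replicate 3, while the other 10 libraries had slopes of -0.0832 to 0.0148. Mitochondrial genes held 12.4% of the reads of replicate 1 and 9.14% of replicate 3, and 4.16% to 6.14% elsewhere. Values at 1.5 h are therefore given by library. Markers of neurons (6 of 6 tested), astrocytes (6 of 6) and oligodendrocytes (6 of 6) were present in all groups, as in brain tissue. Oligodendrocyte markers summed to 759 to 893 FPKM in controls, 765 to 1308 at 1.5 h, 1262 to 1521 at 12 h and 484 to 1149 at 48 h, and none of the 6 passed the test at any time against control. Their part in the changes below was not tested. Choroid plexus markers (5 of 5) summed to 425 to 670 FPKM in controls, 2.83 to 442 at 1.5 h, 299 to 715 at 12 h and 32.6 to 993 at 48 h.

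At 12 h, 8 of the 9 genes rose against control and none fell, where 13.3% of all tested genes rose and 21.2% were called in either direction. Smad7 had the largest log2 change, 1.60, while Acvr1, Tgfb2, Fst and Tgfb1 lay between 0.91 and 0.93, closer together than their SE, and in another order with a pseudocount of 0.1 FPKM. In all 9 genes every 12 h library lay above every control library, a separation upwards that 28.2% of tested genes had. The median log2 change was 0.91 over the 9 genes, beside 0.00076 over all tested genes. At 48 h, 4 of 9 rose, Tgfb1, Tgfb2, Tgfbr2 and Acvr1, where 7.5% of tested genes rose, and the medians were 0.50 and -0.00094. In 6 genes, these 4 with Tgfbr1 and Smad7, every 48 h library lay above every control, as in 21.1% of tested genes. At 1.5 h none passed, where 0.555% of tested genes were called in either direction, and 1 of the 9 had an unadjusted p below 0.05. That share rests on 1.5 h replicate 2: without it 45.7% of tested genes and 1 of the 9, Tgfbr2, were called. Without any other single library of the control and 1.5 h groups the share was 0.0623% to 0.17% and none of the 9 passed. Since tissue was sequenced in bulk, a change in the number of cells of a type and a change in RNA per cell cannot be told apart.

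**Figure D1:**
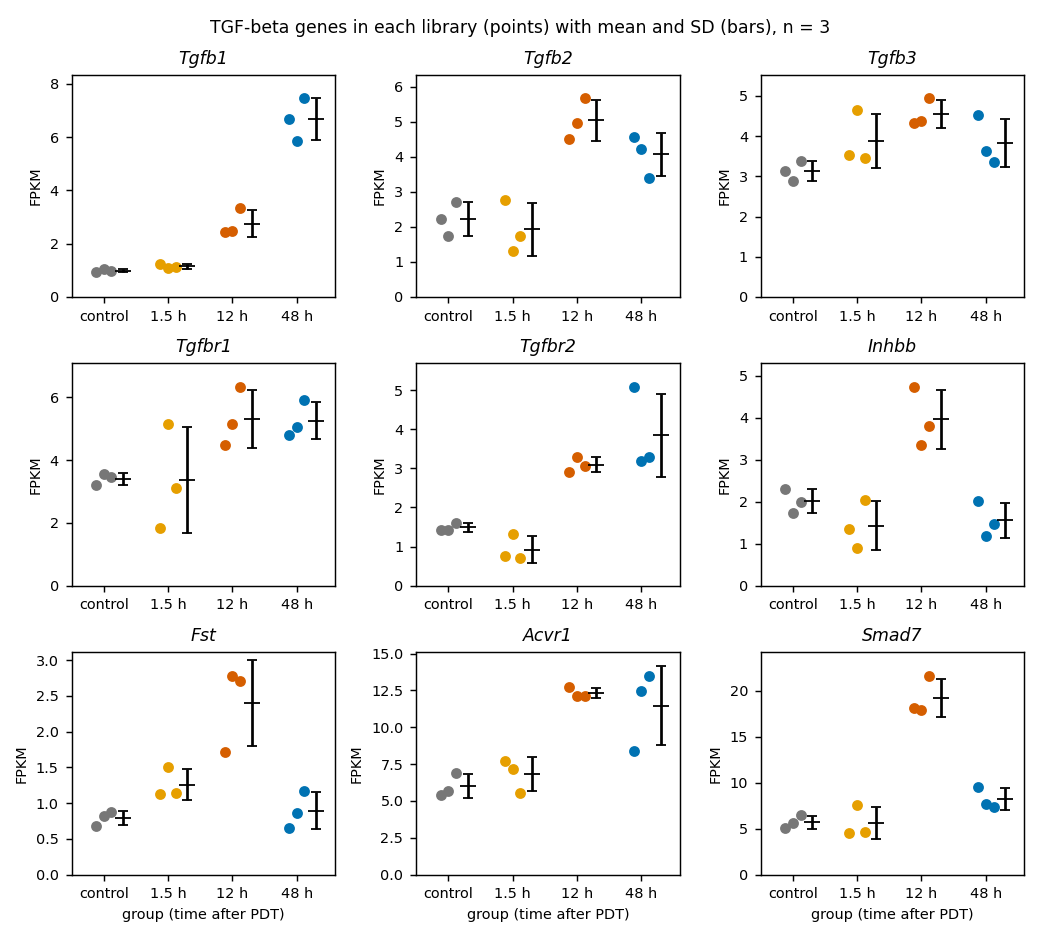
FPKM (y axis, linear from 0) of the 9 genes in each library (points) of the control, 1.5 h, 12 h and 48 h groups, with mean and SD (n = 3) to the right of each group. Tgfb1 stands highest at 48 h, at 6.67 ± 0.792 FPKM, while Smad7, Inhbb and Fst stand highest at 12 h.

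Sequences are given for Tgfb1, Tgfb2 and Tgfbr2, genes that rose at both 12 h and 48 h and whose RefSeq start lies within 3 bases of the start in the deposited table. Each window runs from 250 bases before to 50 bases after the RefSeq start on GRCm38.p6, 5′ to 3′ on the strand of the gene. Capitals mark matches, on either strand, to the AP-1 motif TGANTCA, the CRE core motif TGACG, the SMAD motif CAGAC or the GC-rich SMAD motif GGCGCC.
Tgfb1 promoter (chr7:25686752-25687051, plus strand): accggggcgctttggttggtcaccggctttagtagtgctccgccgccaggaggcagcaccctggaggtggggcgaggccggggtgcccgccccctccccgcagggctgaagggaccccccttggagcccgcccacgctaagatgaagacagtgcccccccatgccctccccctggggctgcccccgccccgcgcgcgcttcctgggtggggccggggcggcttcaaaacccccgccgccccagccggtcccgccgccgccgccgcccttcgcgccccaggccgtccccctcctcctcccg
Tgfb2 promoter (chr1:186705940-186706239, minus strand): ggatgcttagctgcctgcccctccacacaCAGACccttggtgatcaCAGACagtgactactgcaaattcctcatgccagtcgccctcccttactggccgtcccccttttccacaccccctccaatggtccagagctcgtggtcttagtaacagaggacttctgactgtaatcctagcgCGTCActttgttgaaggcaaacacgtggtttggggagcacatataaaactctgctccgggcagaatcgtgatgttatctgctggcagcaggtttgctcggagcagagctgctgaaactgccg
Tgfbr2 promoter (chr9:116175314-116175613, minus strand): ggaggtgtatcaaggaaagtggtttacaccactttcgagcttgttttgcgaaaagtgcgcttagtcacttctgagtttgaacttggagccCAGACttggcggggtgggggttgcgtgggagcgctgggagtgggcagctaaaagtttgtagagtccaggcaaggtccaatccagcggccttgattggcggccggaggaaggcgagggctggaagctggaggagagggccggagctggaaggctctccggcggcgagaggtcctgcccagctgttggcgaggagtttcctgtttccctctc
The Tgfb2 window held 2 SMAD motifs and 1 CRE core motif, and the Tgfbr2 window held 1 SMAD motif. None of the 4 motifs was found in the Tgfb1 window. Over the 32851 RefSeq windows of 300 bases, 49.6% held the SMAD motif, 20.8% the CRE core motif, 11.9% the GC-rich motif and 7.81% the AP-1 motif, so a match in a single window is common for the first 2 of these. Windows of Inhbb, Acvr1 and Tgfbr1 were also searched, 6 of the 9 genes in all. For Tgfb3 and Fst no promoter window was at hand, and Smad7 was left out of the search, so their motifs are not known here. The Inhbb and Acvr1 windows held none of the 4 motifs, and the Acvr1 start lay farther from that of the deposited table. Of the 2 Tgfbr1 windows searched, 1 held a GC-rich motif and the other a SMAD motif.

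Tgfb1 encodes the ligand made by microglia, macrophages and platelets (chromosome 7, 25687002 to 25705077, ENSMUSG00000002603). Its FPKM was 0.928, 1.06 and 0.976 in controls, 1.24, 1.07 and 1.13 at 1.5 h, 2.44, 2.47 and 3.35 at 12 h, and 6.67, 5.87 and 7.46 at 48 h. All 48 h libraries lay above all 12 h libraries, which lay above all others. Tgfb1 rose by a log2 change of 0.91 ± 0.12 at 12 h (SE, limma, adjusted p = 0.00046) and 1.94 ± 0.12 at 48 h (adjusted p = 5.1e-06). The rise at 48 h against 12 h was 1.03 ± 0.12 (adjusted p = 0.00034), and Tgfb1 was the only 1 of the 9 genes that rose in that comparison, where 5.88% of tested genes rose. At 1.5 h the log2 change was 0.11, with a 95% interval of -0.16 to 0.38 (adjusted p = 0.54). These 3 calls held in each of the 15 alternatives run for them, among them leaving out each library of the compared groups and removing the length trend. With a pseudocount of 0.1 FPKM in place of 1 the 12 h change was 1.38.

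Tgfb2 is expressed by neurons, glia and choroid plexus (chromosome 1, 186622792 to 186705989, ENSMUSG00000039239). It had 2.22, 1.74 and 2.71 FPKM in controls, 2.77, 1.30 and 1.73 at 1.5 h, 4.51, 4.97 and 5.67 at 12 h, and 4.57, 4.24 and 3.40 at 48 h. Libraries of 12 h and 48 h overlapped each other and lay above all control and 1.5 h libraries. The log2 change was 0.91 ± 0.19 at 12 h (adjusted p = 0.0055) and 0.66 ± 0.19 at 48 h (adjusted p = 0.041). At 48 h the rise no longer passed when control replicate 1 or 2 or any 48 h library was left out (adjusted p = 0.052 to 0.16), or with a pseudocount of 0.1 or no filter. Between 48 h and 12 h the log2 difference was -0.26, with an interval of -0.67 to 0.15. The choroid plexus marker sums given above varied most within the 48 h and 1.5 h groups, and their part in Tgfb2 was not tested.

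Tgfb3, the third TGF-beta isoform (chromosome 12, 86056745 to 86079041, ENSMUSG00000021253), had a smaller log2 change than Tgfb1 and Tgfb2 at 12 h and 48 h, but not at 1.5 h. Its FPKM was 3.14, 2.88 and 3.38 in controls, 3.53, 4.65 and 3.46 at 1.5 h, 4.32, 4.38 and 4.94 at 12 h, and 4.51, 3.62 and 3.37 at 48 h. The 12 h libraries stood above controls but overlapped the 1.5 h and 48 h libraries. At 12 h the log2 change was 0.42 ± 0.13 (adjusted p = 0.04), and the call was lost when any of the 6 libraries compared was left out (adjusted p = 0.068 to 0.14), with no filter on low values and with libraries rescaled to equal totals. The changes at 1.5 h and 48 h, 0.23 and 0.22, did not pass (adjusted p = 0.23 and 0.32). Ttll5, on the other strand, overlaps Tgfb3 and averaged 2.11 FPKM, and since the strand setting of the counting is not given, shared reads cannot be told apart.

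The makeup of the 3 TGF-beta transcripts, compared per length in FPKM, changed place with time. Tgfb1 took 14.7%, 18.6% and 13.8% of their summed FPKM in controls, 16.5%, 15.2% and 17.9% at 1.5 h, 21.6%, 20.9% and 24.0% at 12 h, and 42.3%, 42.8% and 52.4% at 48 h. It was the lowest of the 3 in every control, 1.5 h and 12 h library and the highest in every 48 h library. Tgfb3 took 28.6%, 26.4% and 23.7% at 48 h, against 49.9%, 50.7% and 47.9% in controls. The sum of the 3 was 13.7 to 15.8 FPKM at 48 h and 11.3 to 14.0 FPKM at 12 h, against 5.68 to 7.06 FPKM in controls. These shares describe genes whose changes are tested above and carry no test of their own.

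**Figure D2:**
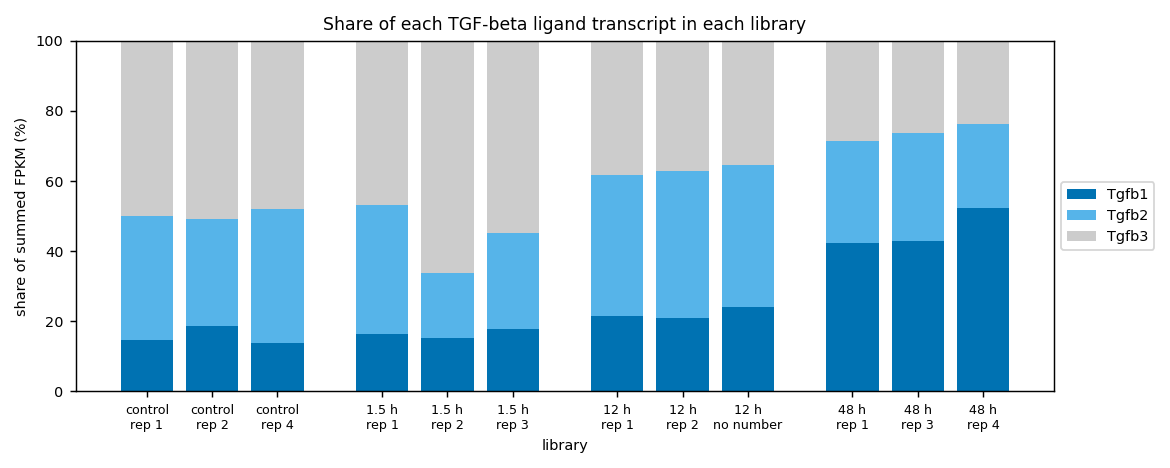
Share of Tgfb1, Tgfb2 and Tgfb3 in their summed FPKM (y axis, percent) in each of the 12 libraries, ordered as control, 1.5 h, 12 h and 48 h. Tgfb1 makes up 42.3% to 52.4% at 48 h and 13.8% to 18.6% in controls.

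Marker sums of several cell types differed from control after treatment. Microglial markers (6 of 6 tested) summed to 46.5 to 49.0 FPKM at 12 h and 140 to 146 FPKM at 48 h, against 78.2 to 84.3 FPKM in controls, so their sum was below control at 12 h, when Tgfb1 was above it, and above control at 48 h. The 6 monocyte and macrophage markers summed to 6.21 to 11.8 FPKM at 12 h and 37.0 to 97.0 FPKM at 48 h, against 3.94 to 4.58 FPKM in controls. Only Lyz2, the lysozyme of macrophages, passed the filter in that list, and none of its markers was at 0 throughout a group. Platelet markers (2 of 4 tested) summed to 1.73 to 3.13 FPKM at 12 h and 2.01 to 6.93 FPKM at 48 h, against 0.748 to 1.22 FPKM in controls, with Ppbp at 0 in all 48 h and all control libraries. Neutrophil markers (2 of 6 tested) summed to 5.79 to 21.1 FPKM at 12 h and 0.470 to 2.67 FPKM at 48 h, against 0.134 to 0.524 FPKM in controls, with Ly6g at 0 in all 12 h and control libraries, Retnlg in all 48 h libraries and Ngp in all controls. S100a8 and S100a9 rose at 12 h. T cell markers (2 of 4 tested) summed to 5.96 to 12.0 FPKM at 12 h and 0.119 to 0.423 FPKM at 48 h, against 1.19 to 4.6 FPKM in controls. Of these, Cd3e rose at 12 h and Cd4 fell at 48 h, Cd8a was at 0 in all 12 h libraries, and Cd3d was at 0 in all 48 h and control libraries. At 1.5 h, when none of the 9 genes passed, neutrophil markers summed to 0.660 to 17.9 FPKM, above all controls, with Ly6g at 0. The other sums at 1.5 h overlapped controls. They were 72.8 to 125 FPKM for microglial markers and 4.21 to 7.83 FPKM for monocyte and macrophage markers. Platelet markers summed to 1.21 to 7.63 FPKM and T cell markers to 0.372 to 3.37 FPKM at that time. The part of these cells in the levels of the 9 genes was not tested.

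Inhbb encodes the beta B chain of activin and inhibin (chromosome 1, 119415465 to 119422248, ENSMUSG00000037035). Its FPKM was 2.31, 1.74 and 2.0 in controls, 1.35, 0.892 and 2.05 at 1.5 h, 4.73, 3.35 and 3.81 at 12 h, and 2.02, 1.19 and 1.46 at 48 h. The 12 h libraries stood above all others, which overlapped. Inhbb rose at 12 h by 0.71 ± 0.19 (log2, adjusted p = 0.02). It missed the threshold when control replicate 2, control replicate 4, 12 h replicate 1 or the unnumbered 12 h library was left out (adjusted p = 0.053 to 0.08). It fell at 48 h against 12 h, with a log2 change of -0.96 ± 0.19 (adjusted p = 0.0059). The log2 difference from control at 48 h was -0.25, with an interval of -0.66 to 0.17.

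Fst encodes follistatin, the secreted protein that binds activins (chromosome 13, 114452290 to 114458951, ENSMUSG00000021765), and had the fewest reads of the 9 genes in any library, 54. It had 0.680, 0.815 and 0.872 FPKM in controls, 1.13, 1.51 and 1.14 at 1.5 h, 1.71, 2.78 and 2.71 at 12 h, and 0.651, 0.857 and 1.17 at 48 h. All 12 h libraries stood above all other libraries, and the 48 h libraries overlapped controls. Fst rose at 12 h by 0.91 ± 0.15 (log2, adjusted p = 0.0019) and fell at 48 h against 12 h (-0.84 ± 0.15, adjusted p = 0.0043). With a pseudocount of 0.1 FPKM the 12 h change was 1.47. At 1.5 h every library was above every control in deposited FPKM, a separation upwards that 14.6% of tested genes had. Relative to recovered reads that separation was absent. The 1.5 h replicate 1, with 63 of 15709617 reads, lay below control replicate 4, with 70 of 16306254. The log2 change at 1.5 h was 0.33, with an interval of -0.0062 to 0.67, and did not pass (adjusted p = 0.16).

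Smad7 encodes the inhibitory SMAD induced by TGF-beta and BMP signals (chromosome 18, 75367529 to 75395935, ENSMUSG00000025880). Its FPKM was 5.05, 5.56 and 6.46 in controls, 4.5, 7.57 and 4.62 at 1.5 h, 18.1, 17.9 and 21.6 at 12 h, and 9.55, 7.67 and 7.38 at 48 h. The 12 h libraries stood far above all others, and each 48 h library was above each control. Smad7 rose at 12 h by 1.60 ± 0.18 (log2, adjusted p = 0.00014) and fell at 48 h against 12 h (-1.14 ± 0.18, adjusted p = 0.0017). The 48 h change against control was 0.46, with an interval of 0.064 to 0.85, and did not pass (adjusted p = 0.13). With only the 48 h and control groups in the fit it did (adjusted p = 0.048), as it did without 1.5 h replicates 1 and 3 (adjusted p = 0.024).

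Acvr1 encodes a type I receptor for BMPs and activins (chromosome 2, 58388644 to 58567157, ENSMUSG00000026836). It had 5.42, 5.69 and 6.93 FPKM in controls, 7.74, 7.19 and 5.51 at 1.5 h, 12.7, 12.1 and 12.1 at 12 h, and 8.41, 12.5 and 13.5 at 48 h. The 12 h libraries were tightly grouped, and 48 h replicate 1 lay below them but above all controls. Acvr1 rose by 0.93 ± 0.17 at 12 h (log2, adjusted p = 0.0032) and 0.81 ± 0.17 at 48 h (adjusted p = 0.011). Without control replicate 1 the 48 h change was 0.75 and did not pass (adjusted p = 0.052).

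Tgfbr2 encodes the type II receptor that binds TGF-beta first (chromosome 9, 116084293 to 116175360, ENSMUSG00000032440). Its FPKM was 1.43, 1.43 and 1.61 in controls, 0.754, 1.32 and 0.698 at 1.5 h, 2.91, 3.30 and 3.05 at 12 h, and 5.07, 3.19 and 3.28 at 48 h. It was below controls in every 1.5 h library and above them in every 12 h and 48 h library. Tgfbr2 rose by 0.71 ± 0.16 at 12 h (log2, adjusted p = 0.01) and 0.94 ± 0.16 at 48 h (adjusted p = 0.0035). At 1.5 h the log2 change was -0.39 ± 0.16 (adjusted p = 0.14), and it passed without replicate 2, at -0.53 (adjusted p = 0.017), where the 2 libraries left are those with the length trend. With that trend removed it was -0.21, and with a pseudocount of 0.1 it was -0.68.

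Tgfbr1, the type I receptor that pairs with Tgfbr2 (chromosome 4, 47353222 to 47414931, ENSMUSG00000007613), passed in no comparison. It had 3.20, 3.56 and 3.47 FPKM in controls, 1.84, 5.16 and 3.11 at 1.5 h, 4.48, 5.14 and 6.32 at 12 h, and 4.79, 5.05 and 5.92 at 48 h. All 12 h and all 48 h libraries stood above all controls. At 1.5 h, replicates 1 and 3 lay below every library of the other groups, and replicate 2 lay within their range. The log2 changes were 0.51 ± 0.23 at 12 h and 0.50 ± 0.23 at 48 h (adjusted p = 0.15 and 0.19). Both passed when 1.5 h replicates 1 and 3 were left out of the fit (adjusted p = 0.01 and 0.015) with the same log2 changes, and with only the compared groups in the fit (adjusted p = 0.014 and 0.018). Against 1.5 h the changes were 0.59 at 12 h and 0.58 at 48 h, and without 1.5 h replicate 2 they were 0.88 and 0.87 and passed (adjusted p = 0.0015 and 0.0025).

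**Figure D3:**
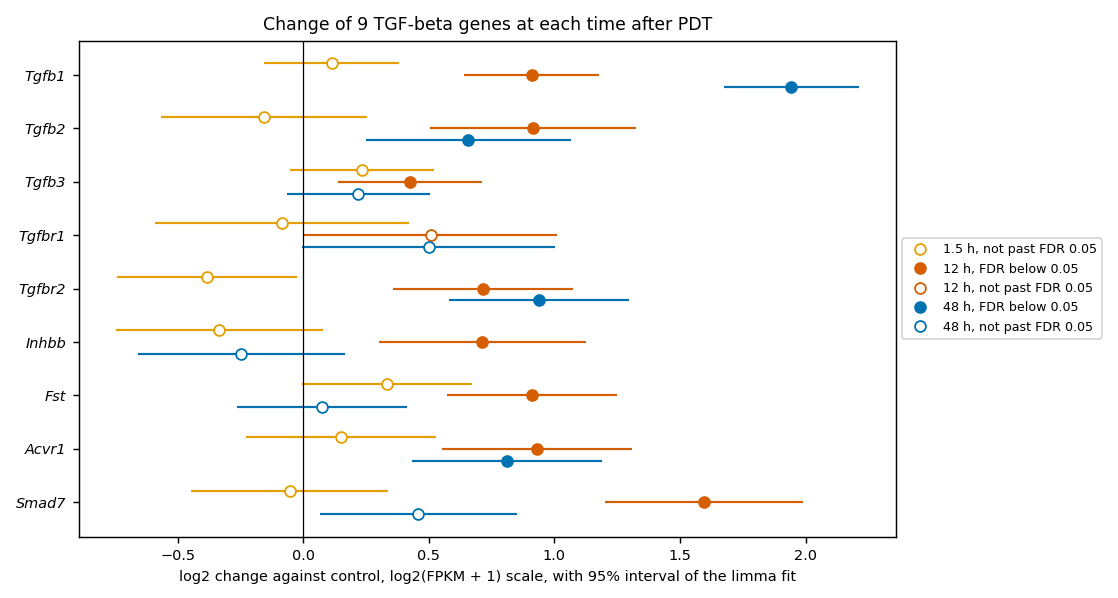
Log2 change against control on the log2(FPKM + 1) scale (x axis) of each gene (rows) at 1.5 h, 12 h and 48 h, with the 95% interval of the limma fit. Filled points passed a false discovery rate of 0.05 and open points did not. Smad7 at 12 h and Tgfb1 at 48 h lie farthest to the right, at 1.60 and 1.94.

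Endothelial markers (6 of 6 tested) summed to 49.8 to 62.4 FPKM at 12 h and 46.8 to 74.2 FPKM at 48 h, against 22 to 25.2 FPKM in controls. At 1.5 h they summed to 14.6 to 25.5 FPKM. Of the 6, 4 rose at 12 h (Cdh5, Pecam1, Cldn5 and Kdr), 1 rose at 48 h (Cldn5), and none fell. Pericyte and smooth muscle markers (5 of 6 tested) summed to 22.1 to 26.1 FPKM at 12 h and 26.0 to 48.3 FPKM at 48 h, against 24.9 to 26.4 FPKM in controls. Within that list Kcnj8 and Acta2 rose at both times, and Rgs5 fell at 12 h. Astrocyte markers (6 of 6) summed to 468 to 516 FPKM at 12 h and 261 to 301 FPKM at 48 h, against 413 to 438 FPKM in controls. The members differed in direction: Aldh1l1 rose at both times and Aqp4 at 48 h, and Aldoc fell at 48 h. None of these markers was at 0 throughout a group, and the part of each cell type in the receptor and Smad7 levels was not tested.

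Between times after treatment, 7 of the 9 genes rose at 12 h against 1.5 h, all but Tgfb3 and Tgfbr1, where 16.9% of tested genes rose and 16.3% fell (33.2% in all). At 48 h against 12 h, 3 fell, Smad7, Inhbb and Fst, and Tgfb1 rose, where 9.73% of tested genes fell and 15.6% were called in either direction. At 48 h against 1.5 h, 4 rose, where 8.91% of tested genes rose and 8.87% fell (17.8% in all): Tgfb1 (1.83 ± 0.12), Tgfbr2 (1.32 ± 0.16), Tgfb2 (0.81 ± 0.19) and Acvr1 (0.66 ± 0.17). Without 1.5 h replicate 2, 54.7% of tested genes and 8 of the 9 were called at 12 h against 1.5 h, and 44.2% and 6 of the 9 at 48 h against 1.5 h. A test of any difference among the 4 groups passed for 7 of 9, all but Tgfb3 and Tgfbr1 (adjusted p = 0.095 and 0.083), where 38.4% of tested genes passed. Without 1.5 h replicate 2 it passed for 9 of 9, where 69.9% of tested genes did.

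By level per length, Acvr1 and Smad7 led the 9 genes in all groups. Acvr1 averaged 6.01 ± 0.804 FPKM in controls (SD, n = 3) beside 5.69 ± 0.717 FPKM for Smad7, less apart than their spread, and at 12 h Smad7 stood at 19.2 ± 2.10 FPKM beside 12.3 ± 0.344 FPKM for Acvr1. Tgfb1 and Fst were the lowest in controls, at 0.987 ± 0.0649 and 0.789 ± 0.0989 FPKM. At 48 h Tgfb1 came next after Acvr1 and Smad7, at 6.67 ± 0.792 FPKM, and Fst was the lowest, at 0.893 ± 0.262 FPKM, as in controls and at 12 h. At 1.5 h Tgfbr2 was the lowest, at 0.925 ± 0.346 FPKM.

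Of 13711 other genes with a mean of at least 1 FPKM, those nearest to each changing gene were found by the root mean square difference over the 12 libraries of log2 values centred on controls. Tgfb1 was nearest to Ctsc, a lysosomal protease (0.18), Efemp2, a matrix protein (0.18), and Ifi30, a lysosomal thiol reductase (0.19). Tgfbr2 was nearest to the integrin chain Itgb1 (0.09), the ubiquitin ligase Trim25 (0.10) and the scaffold Iqgap1 (0.13). Smad7 lay near Pfkfb3, a regulator of glycolysis (0.15), Utp14b (0.16) and the histone methyltransferase Dot1l (0.17). For Fst these were Nefl, a neurofilament chain (0.12), Phf13 (0.13) and Uspl1 (0.14), and for Acvr1 Klhl2 (0.15), Adgrd1 (0.17) and Ipo5 (0.18). Tgfb2 and Inhbb had looser neighbours: Map2k3 (0.20), Rela (0.21) and Pabpc1 (0.22) for Tgfb2, and Piga (0.21), Mynn (0.22) and Disp1 (0.22) for Inhbb. The profiles share libraries and the list is a description.

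Beyond these 9, 96 further genes of the TGF-beta, activin and BMP pathways were taken in 9 lists, and 75 were tested. At 12 h 19 of the 75 rose and 4 fell, where 13.3% of all tested genes rose and 7.9% fell. At 48 h 10 rose and 5 fell, where 7.5% rose and 5.01% fell. These shares of all tested genes also stand beside the counts of each list below. None of the 75 passed at 1.5 h. Among the 12 h risers, Tgif1, Smad6, Thbs1 and Grem1 lay below the 0.5 FPKM filter in every control. They passed that filter only through treated libraries. The median log2 change of the 75 was -0.19 at 1.5 h, 0.17 at 12 h and 0.13 at 48 h. Over all tested genes it was 0.016, 0.00076 and -0.00094. The 1.5 h median includes the libraries with the length trend and was not recomputed with that trend removed.

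Among other ligands, Inhba, which makes activin A, was at 51.0 ± 26.6 FPKM at 12 h and 22.5 ± 8.50 FPKM at 48 h, against 1.34 ± 0.213 FPKM in controls (SD, n = 3). It rose by 4.33 ± 0.40 and 3.26 ± 0.40 in log2 (adjusted p = 4.4e-05 and 0.00041), while the 48 h change of Inhbb, -0.25, did not pass. Inha, the inhibin alpha chain, was at 14.9 ± 2.41 FPKM at 12 h and 12.9 ± 2.48 FPKM at 48 h, against 21.5 ± 0.726 FPKM in controls, and fell at both times (-0.51 ± 0.16 and -0.71 ± 0.16, adjusted p = 0.039 and 0.012). In all, 1 of 6 tested members rose and 1 fell at 12 h, and 1 rose and 2 fell at 48 h, where Gdf10 was the other fall (-0.56 ± 0.15). Of 5 tested BMP ligands, Bmp2 (0.66 ± 0.16) and Bmp7 (0.52 ± 0.16) rose at 12 h and none passed at 48 h. The 12 h calls of Inha, Bmp2 and Bmp7 and the 48 h call of Gdf10 were each lost in 4 or more of 15 alternatives.

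Of 12 other receptors and co-receptors, 2 rose and 1 fell at 12 h, and 1 fell at 48 h. Acvrl1, the type I receptor of endothelium, was at 4.99 ± 0.568 FPKM at 12 h, against 2.21 ± 0.201 FPKM in controls (0.90 ± 0.24, adjusted p = 0.02). Bmpr1b rose by 0.63 ± 0.18, and Acvr1b, the activin type I receptor, fell, with a change of -0.61 ± 0.18 (adjusted p = 0.027 and 0.033). Acvr2b, an activin type II receptor, fell at 48 h (-0.56 ± 0.15, adjusted p = 0.035). Each of these 4 receptor calls was lost in 5 or more of 15 alternatives. Among 7 other SMADs, 2 rose at 12 h: Smad1, a BMP-branch SMAD, at 11.8 ± 1.69 FPKM against 4.43 ± 0.544 FPKM (1.23 ± 0.15, adjusted p = 0.0003), and the inhibitory Smad6, at 1.38 ± 0.539 FPKM against 0.351 ± 0.143 FPKM (0.80 ± 0.18, adjusted p = 0.011). No other SMAD passed at 48 h.

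Among 9 tested genes that store or release latent ligand, 3 rose at 12 h and 1 at 48 h. Thbs1, thrombospondin 1, which activates latent TGF-beta, was at 15.7 ± 3.27 FPKM at 12 h and 2.92 ± 2.86 FPKM at 48 h, against 0.179 ± 0.0562 FPKM in controls (3.81 ± 0.37 and 1.50 ± 0.37, adjusted p = 6.1e-05 and 0.022). The 48 h libraries of Thbs1 spanned 1.26 to 6.22 FPKM, with replicate 1 highest, and without it the log2 change was 0.94 (adjusted p = 0.0094). The 48 h call was lost without control replicate 1, 2 or 4. Lrrc32, a surface anchor of latent TGF-beta, was at 5.39 ± 1.10 FPKM at 12 h, against 0.683 ± 0.0158 FPKM in controls (1.91 ± 0.21, adjusted p = 0.00014). The third gene was Furin, the protease that cuts the TGF-beta precursor.

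Of 11 other extracellular antagonists, 1 rose and 1 fell at each of 12 h and 48 h. Noggin (Nog), a BMP antagonist, fell at both times (-0.64 ± 0.12 and -0.77 ± 0.12, adjusted p = 0.0036 and 0.002). Grem1 rose at 12 h by 0.76 ± 0.21 (adjusted p = 0.026), a call lost in 7 of 15 alternatives. Bgn, the matrix proteoglycan biglycan, rose at 48 h by 1.45 ± 0.22 (adjusted p = 0.0018). Among 9 intracellular modulators, 3 rose at 12 h and 2 at 48 h. Pmepa1, a TGF-beta target that dampens SMAD signalling, was at 31.9 ± 8.86 FPKM at 12 h and 38.6 ± 3.52 FPKM at 48 h, against 12.0 ± 1.33 FPKM in controls (1.31 ± 0.21 and 1.61 ± 0.21, adjusted p = 0.0012 and 0.00058). The corepressor Tgif1 was at 1.04 ± 0.213 FPKM at 12 h and 1.17 ± 0.624 FPKM at 48 h, against 0.122 ± 0.0186 FPKM in controls. Its log2 changes were 0.85 ± 0.17 and 0.92 ± 0.17, from a control level below the filter on low values.

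Of 11 tested TGF-beta target genes, 5 rose at 12 h and 5 at 48 h, and none fell. Tgfbi, a matrix protein named for its induction by TGF-beta, was at 3.12 ± 0.763 FPKM at 12 h and 6.91 ± 3.0 FPKM at 48 h, against 0.556 ± 0.0621 FPKM in controls (1.39 ± 0.22 and 2.28 ± 0.22, adjusted p = 0.0014 and 9.2e-05). Fn1, the matrix protein fibronectin, was at 14.8 ± 13.4 FPKM at 48 h, against 2.63 ± 0.293 FPKM in controls, and rose by 1.79 ± 0.48 (adjusted p = 0.032). That call was lost without control replicate 1, 2 or 4 or 48 h replicate 1 or 4, and in 9 of 15 alternatives in all. Without 48 h replicate 1 the log2 change was 1.14. The list's median was 0.64 at 12 h and 0.85 at 48 h. Its other members that rose were Pmepa1 and Acta2 at both times, Snai1 and Cdkn2b at 12 h, and Col1a1 at 48 h, genes that smooth muscle, fibroblasts and macrophages also express. Fibroblast markers (5 of 6 tested) summed to 3.19 to 4.22 FPKM at 12 h and 4.70 to 10.2 FPKM at 48 h, against 1.63 to 3.59 FPKM in controls, and their part in these changes was not tested.

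Of 8 BMP target genes, 2 rose and 1 fell at 12 h, and 1 rose and 1 fell at 48 h. The 12 h risers were Id1 and Smad6, which is also counted among the SMADs above. Id1, an inhibitor of DNA binding, was at 23.2 ± 3.45 FPKM at 12 h and 18.5 ± 7.27 FPKM at 48 h, against 8.0 ± 0.780 FPKM in controls (1.42 ± 0.29 and 1.06 ± 0.29, adjusted p = 0.0058 and 0.037). Id4, of the same family, was at 7.45 ± 0.492 FPKM at 12 h and 6.29 ± 3.40 FPKM at 48 h, against 15.7 ± 2.16 FPKM in controls (-0.98 ± 0.28 and -1.28 ± 0.28, adjusted p = 0.028 and 0.011). The 48 h call of Id1 was lost in 7 of 15 alternatives and the 12 h call of Id4 in 8.

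**Figure D4:**
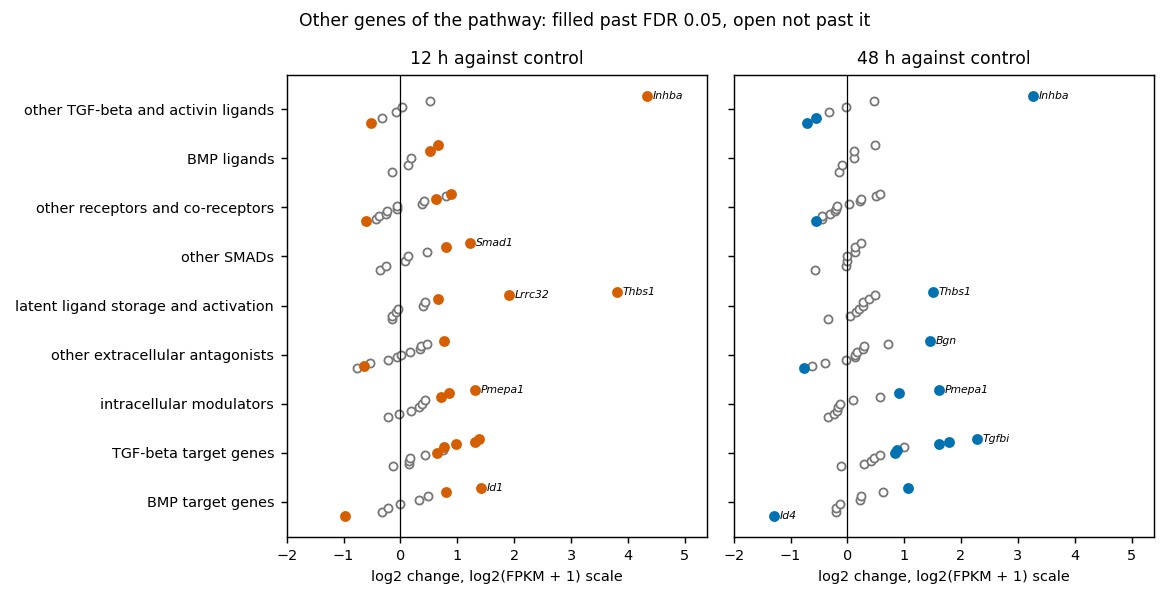
Log2 change on the log2(FPKM + 1) scale (x axis) of each tested gene in the 9 pathway lists (rows) at 12 h and 48 h against control. Filled points passed a false discovery rate of 0.05, and Inhba (4.33), Thbs1 (3.81) and Lrrc32 (1.91) lie farthest right at 12 h.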

How the data were processed

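RNA of mouse brain was sequenced in 12 libraries, and 1 table of FPKM values was deposited, made by the authors, with gene length and coordinates per the file headers. The submitters' processing notes name Bowtie 0.12.2 and build mm8. The counting tool, strand setting and annotation are not given in the sources used here. Coordinates are called GRCm38 because 98.3% of the 54409 gene identifiers shared with GENCODE M21 had identical ends there. FPKM times gene length was a multiple of 1 step per library for at least 99.99% of values, within 0.05 of a step, which gave recovered reads. Of the columns, 11 matched a sample title. The other bore a number that no title of its group has. It was assigned to the 12 h group by its name and is called unnumbered here. A title of that group matched no column.

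Genes above 0.5 FPKM in at least 3 libraries were tested on log2(FPKM + 1), which understates changes of low genes, with limma 3.58.1 in R 4.3.3. The fit held all 12 libraries in 4 groups and the mean-variance trend, with 8 residual and 3.09 prior degrees of freedom, and p-values were adjusted by Benjamini-Hochberg over all 17664 genes. It was tested on simulated data. Spread between libraries, which may be technical, is all that the p-values measure. Alternatives changed the pseudocount (0.1), filter, scaling, length trend, variance trend, groups in the fit, replicate block and libraries. Single libraries were left out only in the groups of the comparison concerned. In each pathway list and at each time against control, the text names up to 2 risers and 2 fallers with the greatest change among called genes, plus some called genes chosen after their values were seen (Furin, Acta2, Snai1, Cdkn2b and Col1a1). For each gene past the overall test it names the 3 nearest profiles. The members and lists were chosen with earlier results of these data known, and some pathway genes are not reported here. Promoters are from RefSeq on GRCm38.p6.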

Additional observations from a re-analysis of the deposited data

Results flagged for a closer look

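The change against control of 7 of the 9 genes differed between times by limma's test of the difference, 15 differences in all. The 12 h change exceeded the 1.5 h change for Smad7 (1.65), Tgfbr2 (1.10), Tgfb2 (1.07), Inhbb (1.05), Tgfb1 (0.80), Acvr1 (0.78) and Fst (0.58). The 48 h change was above the 12 h change for Tgfb1 (1.03) and below it for Smad7 (-1.14), Inhbb (-0.96) and Fst (-0.84). The 48 h change exceeded the 1.5 h change for Tgfb1 (1.83), Tgfbr2 (1.32), Tgfb2 (0.81) and Acvr1 (0.66). All are log2 differences, and controls cancel in them. With a pseudocount of 0.1 FPKM that of Tgfbr2 between 12 h and 1.5 h was 1.69. The difference of Fst between 12 h and 1.5 h did not pass without 1.5 h replicate 1 or 3, 12 h replicate 2 or the unnumbered 12 h library (adjusted p = 0.053 to 0.066). That of Acvr1 between 48 h and 1.5 h was lost without 1.5 h replicate 3 or 48 h replicate 3 or 4 (adjusted p = 0.073 to 0.094), and that of Tgfb2 without 48 h replicate 1 (adjusted p = 0.051). With only the compared groups in the fit those 3 differences did not pass (adjusted p = 0.073 to 0.16). With the replicate block, the falls of Smad7, Inhbb and Fst at 48 h against 12 h did not pass (adjusted p = 0.055 to 0.12). Nor did Tgfb2, Fst and Acvr1 at 12 h against 1.5 h, or Tgfb2 and Acvr1 at 48 h against 1.5 h. Without 1.5 h replicates 1 and 3 together, Fst (0.42) and Acvr1 (0.70) at 12 h against 1.5 h and Acvr1 (0.58) at 48 h against 1.5 h did not pass.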

How the results depend on the processing

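Of 810 recomputed log2 changes of the 9 genes, 719 kept their direction and side of the threshold, 48 lost and 12 gained a call, and 31 changed sign, none of which passed before or after. The number of genes called lay between 6 and 7 at 12 h against control when libraries were left out in turn, 2 and 4 at 48 h, 0 and 1 at 1.5 h, 6 and 8 at 12 h against 1.5 h, 4 and 4 at 48 h against 12 h, 3 and 6 at 48 h against 1.5 h, and 7 and 9 for any difference. The count of 2 at 48 h came without control replicate 1, when 7.03% of tested genes were called, and the count of 1 at 1.5 h without 1.5 h replicate 2, when 45.7% were. Over all tested genes, leaving out single libraries gave 13.0% to 15.4% called at 12 h, beside 21.2% with all libraries, and 6.83% to 10.1% at 48 h, beside 12.5%. With the replicate block, which drops the unnumbered library, 4 of the 9 genes and 7.48% of all tested genes were called at 12 h. The count and share were 2 and 4.1% at 48 h, 4 and 6.42% at 12 h against 1.5 h, and 1 and 2.66% at 48 h against 12 h. They were 2 and 4.9% at 48 h against 1.5 h, and 4 and 8.68% for any difference. Without the block the shares were, in that order, 21.2%, 12.5%, 33.2%, 15.6%, 17.8% and 38.4%. Same-numbered libraries had correlations of -0.264 to 0.156 in their deviations across genes, 3 of 11 above 0.1, and matched their own number best in 5 of 22 comparisons. With only 2 groups in the fit, 2 of the 9 genes were called at 48 h against 1.5 h, where 3.16% of all tested genes were. The cause of these changes was not tested.

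Sign changes with rescaled totals, which moved the median of all genes by -0.13 at 1.5 h, 0.18 at 48 h against 1.5 h and 0.12 at 48 h against 12 h, were Tgfb1 at 1.5 h (-0.013), Acvr1 at 1.5 h (-0.060), Tgfb3 at 48 h against 1.5 h (0.23), and Tgfbr1 (0.13) and Acvr1 (0.030) at 48 h against 12 h. With the length trend removed they were Tgfbr1 (0.048) and Smad7 (0.0044) at 1.5 h and Tgfbr1 at 48 h against 12 h (0.020), and with quantile normalization Tgfbr1 at 48 h against 12 h (0.0026) and Inhbb at 48 h against 1.5 h (-0.019). The replicate block gave Tgfb3 at 48 h against 1.5 h (0.021), Tgfbr1 at 48 h against 12 h (0.19) and Smad7 at 1.5 h (0.0071). Without 1.5 h replicates 1 and 3 together, Tgfb3 was at -0.029 at 12 h against 1.5 h, and Tgfbr1 and Smad7 at 0.48 and 0.36 at 1.5 h. Leaving out single libraries gave -0.35 to 0.0036 for Tgfb2, -0.37 to 0.19 for Tgfbr1 and -0.26 to 0.058 for Smad7 at 1.5 h, -0.029 to 0.17 for Fst at 48 h, -0.11 to 0.097 for Tgfb3 and -0.079 to 0.27 for Inhbb at 48 h against 1.5 h, and -0.11 to 0.10 for Tgfbr1 and -0.24 to 0.068 for Acvr1 at 48 h against 12 h.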

Other observations

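Within a library, the FPKM of Tgfbr2, the ligand-binding receptor, relative to that of its partner Tgfbr1 was 0.445, 0.402 and 0.464 in controls, 0.410, 0.256 and 0.225 at 1.5 h, 0.651, 0.642 and 0.483 at 12 h, and 1.06, 0.632 and 0.554 at 48 h. Each 12 h and 48 h library was above each control, and 48 h replicate 1 stood highest.

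Inhbb relative to its antagonist Fst was at 3.40, 2.14 and 2.30 in controls, 1.2, 0.592 and 1.80 at 1.5 h, 2.77, 1.2 and 1.41 at 12 h, and 3.10, 1.39 and 1.25 at 48 h. The 1.5 h libraries lay below all controls, while the 12 h and 48 h libraries overlapped them.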
